A study of Mus musculus with 8 samples.

Results

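The genes described here are the D cyclins (Ccnd1, Ccnd2, Ccnd3), the kinases they activate in the G1 phase of the cell cycle (Cdk4, Cdk6), the inhibitors of those kinases (Cdkn2a, Cdkn2c, Cdkn2d, Cdkn1b) and the retinoblastoma gene Rb1. They were taken by symbol: every array probe that is not a control and whose gene name in the scanner files is 1 of these 10 symbols was included. This gave 15 probes for 10 genes, of 39429 probes and 31829 gene names on the array. All 15 passed the filter on dim probes (well above background on at least 2 of 8 arrays), which 28410 probes in all passed, and none was saturated on any array. Cdk4 had 3 probes, Ccnd3, Cdkn1b and Cdkn2a had 2 each, and the other genes had 1 each. Probes of 1 gene are not replicates of a condition.

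RNA came from pro-B cells, B lineage precursors whose antigen receptor is not yet assembled, of BALB/c Rag1 null mice, which cannot recombine receptor genes and so hold B cells at that stage. The 4 groups had 2 arrays each, 1 per cell sort: fetal liver (FL) cells with let-7b retrovirus, FL cells with the empty MSCV vector, adult bone marrow (BM) cells with Lin28b retrovirus, and BM cells with the empty pMIG vector. FL sorts used embryos of gestation day 16, on average 8 pooled, and BM sorts used 2 adult mice. All 4 groups were grown on OP9, a mouse stromal line, with IL-7. The virus was added a day after sorting to 12 wells, and empty vector to 12 others of the 24 wells, and GFP+ cells were isolated 4 days later. Each sort was thus split between virus and empty vector, but the labels do not say that a replicate number marks a shared sort. FL arrays of the same number shared a slide. The p-values rest on the spread between the 2 sorts of a group, taken as 1 value per probe over all 4 groups. Replicates differed more in FL than in BM, so a comparison within BM also carries the spread of the FL arrays. A comparison within FL is in turn tested with a spread that the BM arrays lower. Its intervals can therefore be too narrow and its p-values too low.

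Cyclin D binds Cdk4 or Cdk6, and the active kinase phosphorylates the Rb1 protein, which then releases E2F transcription factors to switch on genes of DNA replication. Proteins of the INK4 family (from Cdkn2a, Cdkn2c and Cdkn2d) bind Cdk4 and Cdk6 and block them, and the Cdkn1b protein binds cyclin and kinase complexes. In B cell precursors IL-7 drives division, with Ccnd3 as a D cyclin that some of these cells are known to depend on in mice. Cdkn2a is unusual in having a pair of promoters: the upstream one starts the transcript of Arf, which acts on p53, and the downstream one that of the INK4a kinase inhibitor. let-7 microRNAs repress targets through their seed, and Lin28b blocks let-7 maturation. CCND1, CCND2 and CDK6 are known let-7 targets in human cells.

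The mature let-7b sequence is shown because it is the agent that the FL cells received, with its seed (bases 2 to 8) in capitals. It lies at chr15:85707325-85707346 on the plus strand. RefSeq promoters of 300 bases around a transcript start, in build GRCm38.p6, were held for 7 of the 10 genes. Promoters of Cdkn2a are shown since the array cannot tell the transcripts from them apart, with the E2F word TTTCCCGC in capitals. The upstream one is chr4:89294570-89294869 and the downstream one chr4:89282143-89282442, both on the minus strand. The Cdk6 promoter (chr5:3343643-3343942, plus strand) and that of Cdk4 (chr10:127063285-127063584, plus strand) are shown because these partner kinases differed in how they varied between the tissues, with the E-box word CACGTG in capitals.
mmu-let-7b-5p: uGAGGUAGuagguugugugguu
Cdkn2a upstream promoter: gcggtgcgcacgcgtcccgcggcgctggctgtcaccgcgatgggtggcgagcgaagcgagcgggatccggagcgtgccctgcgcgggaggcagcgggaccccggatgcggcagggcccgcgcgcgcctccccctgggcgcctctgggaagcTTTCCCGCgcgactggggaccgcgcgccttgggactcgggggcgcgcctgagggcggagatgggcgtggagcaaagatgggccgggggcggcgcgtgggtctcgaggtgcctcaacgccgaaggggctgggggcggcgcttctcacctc
Cdkn2a downstream promoter: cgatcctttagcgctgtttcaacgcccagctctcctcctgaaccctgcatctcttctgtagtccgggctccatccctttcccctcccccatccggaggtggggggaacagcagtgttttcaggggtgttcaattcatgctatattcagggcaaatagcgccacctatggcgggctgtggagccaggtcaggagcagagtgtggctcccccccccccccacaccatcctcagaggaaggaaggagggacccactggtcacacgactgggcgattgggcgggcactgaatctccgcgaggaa
Cdk6 promoter: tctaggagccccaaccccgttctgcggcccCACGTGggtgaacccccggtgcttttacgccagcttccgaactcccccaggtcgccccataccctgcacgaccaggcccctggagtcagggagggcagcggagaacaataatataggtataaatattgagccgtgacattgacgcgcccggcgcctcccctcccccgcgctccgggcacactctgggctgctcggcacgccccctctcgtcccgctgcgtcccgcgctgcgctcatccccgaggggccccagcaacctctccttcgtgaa
Cdk4 promoter: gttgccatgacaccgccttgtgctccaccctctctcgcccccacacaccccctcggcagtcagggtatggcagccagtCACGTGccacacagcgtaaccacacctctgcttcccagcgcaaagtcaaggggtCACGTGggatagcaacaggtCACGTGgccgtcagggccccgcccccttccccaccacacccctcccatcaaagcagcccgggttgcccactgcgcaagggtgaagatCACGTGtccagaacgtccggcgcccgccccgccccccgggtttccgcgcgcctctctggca

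Both strands of each promoter were searched for CACGTG, TTCNNNGAA (a STAT word) and the E2F words TTTCGCGC, TTTGGCGC and TTTCCCGC, none of which overlapped in these windows. The Cdk4 promoter held 4 matches of CACGTG, the Cdk6 promoter 1 and a Cdkn2c promoter 1, so 3 of the 10 promoters of these genes held it, against 7.15% of all 32851 promoters in the table. The upstream Cdkn2a promoter held 1 match of TTTCCCGC, found in 1.07% of all promoters, and the downstream one held none of the 5 words. No promoter of these genes held TTTCGCGC (0.323% of all), TTTGGCGC (0.514%) or TTCNNNGAA (8.3%). These matches are a description of the letters in each window.

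The transduced gene was read first. Lin28b probe A_52_P532355 had levels of 0.35 and 0.07 on the BM Lin28b arrays, against -9.16 and -8.85 on the BM empty vector arrays, where it was not well above background. Every level is log2 of the processed signal relative to the array's 75th percentile. The difference was at least 137-fold (limma on the measured values, not on the bound, adjusted p = 0.00174). A second Lin28b probe, A_55_P1970905, was at -5.86 and -5.75 with Lin28b and at -6.58 and -6.32 with empty vector (0.64 ± 0.28, adjusted p = 1.00). On the FL arrays the first probe was at -3.26 and -2.60 with let-7b and at -2.40 and -2.53 with empty vector. There the second was at -0.18 and -0.10 with let-7b and at 1.47 and 0.66 with empty vector (-1.20 ± 0.28, adjusted p = 0.278). No probe value was used for let-7b itself, which has no check here. The pro-B gene Ebf1 was well above background on all 8 arrays, as were 11 of 11 pro-B markers with a probe. The hepatocyte gene Alb was on none. Of the 6 hepatocyte markers with a probe, 2 were well above background on each BM array and 1 on each FL array.

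The 75th percentile of the signal was 271 to 488 on FL arrays and 1925 to 2234 on BM arrays. Between 56.1% and 68.5% of probes were well above background on FL arrays, and 64.2% to 67.8% on BM arrays. Correlations between arrays over the kept probes, which are not independent of each other, were 0.969 to 0.989 within FL, 0.990 to 0.994 within BM and 0.908 to 0.941 between the tissues. The median SD of a probe between replicates was 0.22 for FL let-7b and 0.28 for FL empty vector, and 0.07 for BM Lin28b and 0.08 for BM empty vector. The BM arrays lay on slide 1, and the FL arrays on slides 2 and 3, each of which held 1 let-7b array and 1 empty vector array. Tissue, vector, slide and scan therefore cannot be told apart between FL and BM empty vector cells.

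In the comparison of the tissues, FL empty vector cells had less Ccnd1, Cdk6 and Cdkn2a RNA than BM empty vector cells and more Ccnd3, Cdkn1b and Cdkn2d. Ccnd2, Cdk4, Cdkn2c and Rb1 did not pass the test. Of the 15 probes, 5 were higher and 4 lower at an adjusted p under 0.05, over 6 genes. Among all 28410 probes 58.9% were called (39.1% higher, 19.8% lower), so a called difference between the tissues was common on this array. FL arrays lay wholly above or below BM arrays for 12 of the 15 probes (6 above, 6 below), against 82.6% of all probes (53.7% above, 28.9% below). The median difference was 0.11 over the 15 probes and 0.47 over all probes. In these bulk samples fewer cells of a type and less RNA per cell cannot be told apart.

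**Figure D1:**
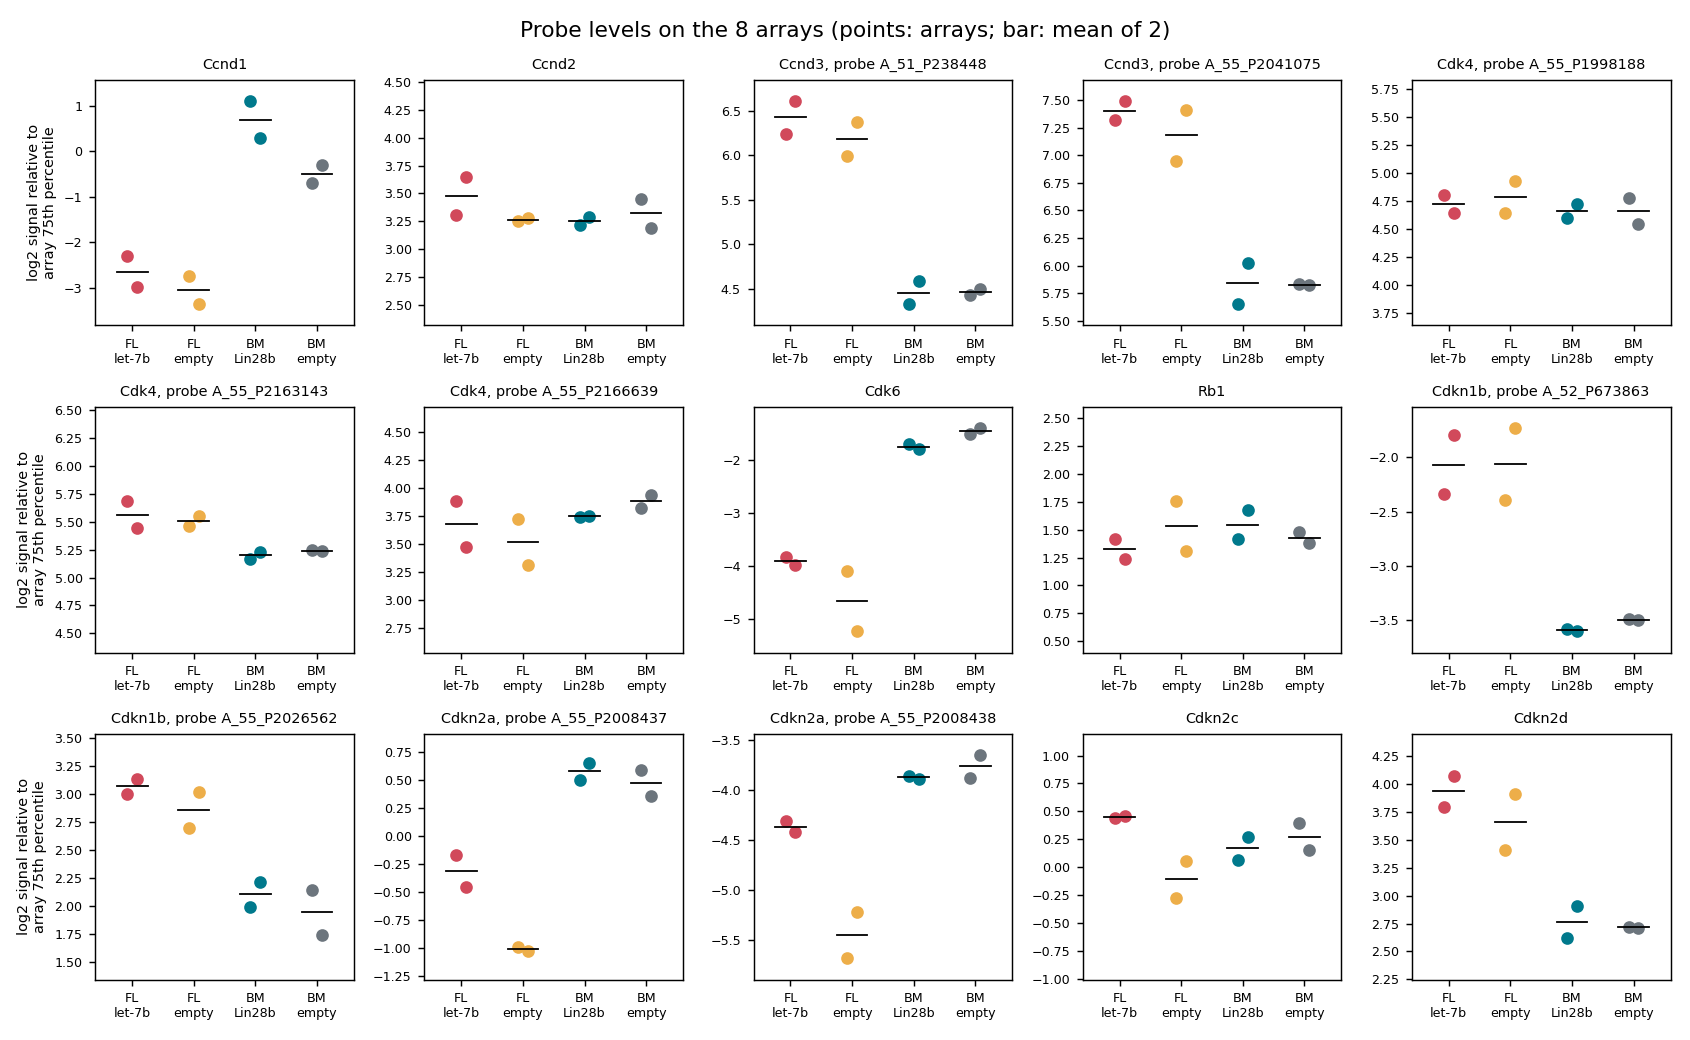
Levels of the 15 probes on the 8 arrays (vertical axes: log2 signal relative to the array's 75th percentile, a separate range for each probe; points: arrays; bars: means of 2). Ccnd1 and Cdk6 sit below the BM arrays on all 4 FL arrays and both Ccnd3 probes sit above them, while Ccnd2 and Cdk4 probe A_55_P1998188 overlap between the tissues.

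The D cyclins separated by gene. Ccnd1 (probe at chr7, 152116202 to 152116261 of build mm9, minus strand) was at -2.31 and -2.98 in FL let-7b cells, against -2.74 and -3.36 in FL empty vector cells. Its level was 1.10 and 0.28 in BM Lin28b cells, against -0.70 and -0.31 in BM empty vector cells. The 4 FL arrays were the lowest, the BM empty vector arrays lay between, and the BM Lin28b arrays were the highest. Between the empty vector groups Ccnd1 fell by 2.55 ± 0.40 (log2, SE), which is 5.86-fold lower in FL than in BM (limma, adjusted p = 0.00336). The size depended on the processing. The difference was -1.47 (limma, adjusted p = 0.043) when normexp replaced the scanner software's background correction, and -2.91 (adjusted p = 0.00249) with quantile normalization. The processed signal was 72.3 and 26.5 on the FL empty vector arrays, against 1189 and 1729 on the BM empty vector arrays.

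Ccnd3 went the other way. Probe A_51_P238448 (chr17, 47736267 to 47736326, plus strand) was at 6.25 and 6.61 in FL let-7b cells and 5.99 and 6.37 in FL empty vector cells. The same probe was at 4.33 and 4.58 in BM Lin28b cells and 4.42 and 4.50 in BM empty vector cells. Every FL array exceeded every BM array, and within each tissue the groups overlapped. The tissue difference was 1.72 ± 0.21, or 3.29-fold higher in FL empty vector cells (limma, adjusted p = 0.00156). The second probe, A_55_P2041075 (47736579 to 47736638 on that strand), was at 6.95 and 7.42 in FL empty vector cells against 5.83 and 5.82 in BM empty vector cells. It gave 1.36 ± 0.22 (adjusted p = 0.00362) in the same limma fit, and 0.40 with an adjusted p of 0.0796 when the arrays were quantile normalized.

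Ccnd2, another D cyclin, did not separate the tissues. It was at 3.25 and 3.28 in FL empty vector cells, against 3.45 and 3.19 in BM empty vector cells. The BM values lay on either side of the FL values, and the difference was -0.06 ± 0.17 with a 95% confidence interval of -0.48 to 0.36.

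The kinases that bind cyclin D also parted. Cdk6 (probe at chr5, 3522106 to 3522165, plus strand) was at -3.84 and -3.99 in FL let-7b cells, against -4.11 and -5.24 in FL empty vector cells. Of the FL empty vector arrays, 1 of 2 had the probe well above background, since replicate 2 did not reach it. BM Lin28b cells were at -1.70 and -1.81, against -1.51 and -1.41 in BM empty vector cells. All FL arrays were far below all BM arrays. The tissue difference of -3.21 ± 0.36, 9.26-fold lower in FL empty vector cells (limma, adjusted p = 0.00128), was the largest of the 15. It was -1.04 with an adjusted p of 0.164 when background was corrected by normexp in place of the scanner software's own correction.

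Cdk4 was read by 3 probes, none of which passed the test between the tissues. Probe A_55_P1998188 was at 4.64 and 4.93 in FL empty vector cells, against 4.78 and 4.54 in BM empty vector cells. The other probes were at 5.46 and 5.56 against 5.25 and 5.24 (A_55_P2163143), and at 3.72 and 3.32 against 3.82 and 3.94 (A_55_P2166639). The first overlapped between the tissues, the second was higher on both FL arrays and the third was lower on both. The 3 differences were 0.13 ± 0.17, 0.27 ± 0.14 and -0.36 ± 0.21, and their 95% intervals together ran from -0.88 to 0.60, against an interval of -4.10 to -2.32 for Cdk6. The sign of the first and second turned under quantile normalization, to -0.21 and -0.20.

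Rb1, the substrate of these kinases, is printed 10 times on the array and its copies were averaged. It was at 1.76 and 1.31 in FL empty vector cells, against 1.48 and 1.38 in BM empty vector cells. The FL values enclosed the BM values, and the difference was 0.11 ± 0.20 (95% interval -0.39 to 0.60, limma, adjusted p = 0.664).

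Among the inhibitors, Cdkn2a was lower and Cdkn1b and Cdkn2d higher in FL. Cdkn2a probe A_55_P2008437 (chr4, 88920405 to 88920464, minus strand) was at -0.17 and -0.46 in FL let-7b cells, against -0.99 and -1.03 in FL empty vector cells. It was at 0.50 and 0.66 in BM Lin28b cells, against 0.59 and 0.36 in BM empty vector cells. The let-7b arrays lay between the FL empty vector arrays and the 4 BM arrays, which overlapped with each other. The tissue difference was -1.49 ± 0.16, 2.80-fold lower in FL empty vector cells (limma, adjusted p = 0.00123). The annotation in the scanner files assigns each Cdkn2a probe to both transcripts, so the products of the promoters printed above were read together.

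Cdkn2a probe A_55_P2008438 (88920543 to 88920602) was dimmer. It was at -5.68 and -5.22 in FL empty vector cells, on neither array well above background, against -3.88 and -3.66 in BM empty vector cells. It was thus at least 2.47-fold lower in FL (limma on the measured values, not on the bound, adjusted p = 0.00134). With normexp background the sign of this dim probe turned, to 0.63 (adjusted p = 0.407), while the brighter probe stayed at -1.15 (adjusted p = 0.0217).

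Cdkn2d, another INK4 gene, was at 3.41 and 3.91 in FL empty vector cells, against 2.72 and 2.71 in BM empty vector cells. Both FL arrays were above both BM arrays, a difference of 0.94 ± 0.22 or 1.92-fold (limma, adjusted p = 0.0138). Its adjusted p was 0.115 with normexp, and 0.0663 and 0.067 when BM empty vector replicate 1 or replicate 2 was left out. Cdkn2c, the remaining INK4 gene here, was at -0.27 and 0.05 in FL empty vector cells and at 0.39 and 0.15 in BM empty vector cells. Its FL arrays were lower without overlap, at -0.38 ± 0.17 (adjusted p = 0.104), and without FL empty vector replicate 2 the difference was -0.55 (adjusted p = 0.0465).

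Cdkn1b, which codes for an inhibitor of cyclin and kinase complexes, was higher in FL by both probes. Probe A_52_P673863 (chr6, 134873606 to 134873665, plus strand) was at -2.40 and -1.73 in FL empty vector cells, against -3.49 and -3.50 in BM empty vector cells. Probe A_55_P2026562 (134875424 to 134875483) was at 2.70 and 3.01 against 2.14 and 1.74. The FL arrays lay above the BM arrays for both. The differences were 1.43 ± 0.28 (2.69-fold, adjusted p = 0.00712) and 0.92 ± 0.20 (1.89-fold, adjusted p = 0.0116) by limma. The call of the first was lost with quantile normalization (0.93, adjusted p = 0.0807), and that of the second in 4 of 18 alternatives. These were normexp (0.93, adjusted p = 0.0727), array weights (adjusted p = 0.0719), the slide as a random block (adjusted p = 0.0516) and leaving out BM empty vector replicate 2 (0.71, adjusted p = 0.0673).

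Between the tissues the scaling moved the median of all probes, from 0.47 as used here to 0.97 with normexp and -0.0037 with quantile normalization. Higher calls made up 11114 of 16734 calls as used here, 10059 of 11968 with normexp and 6955 of 14714 with quantile normalization. Relative to the median of 0.47, Ccnd1 was at -3.02, Cdk6 at -3.68 and the brighter Cdkn2a probe at -1.96. On that footing Ccnd3 was at 1.25 and 0.89, Cdkn1b at 0.96 and 0.44 and Cdkn2d at 0.47, all of the same sign as before centring. Among the probes not called, centring turned Cdk4 probe A_55_P1998188 from 0.13 to -0.34 and A_55_P2163143 from 0.27 to -0.21. It also turned Rb1 from 0.11 to -0.37, and it moved Ccnd2 from -0.06 to -0.53. With normexp the second Cdkn1b probe (0.93) and Cdkn2d (0.70) lay below the median of all probes. Ccnd1, Ccnd3 probe A_51_P238448 and Cdkn2a probe A_55_P2008437 passed the test under all 3 scalings.

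**Figure D2:**
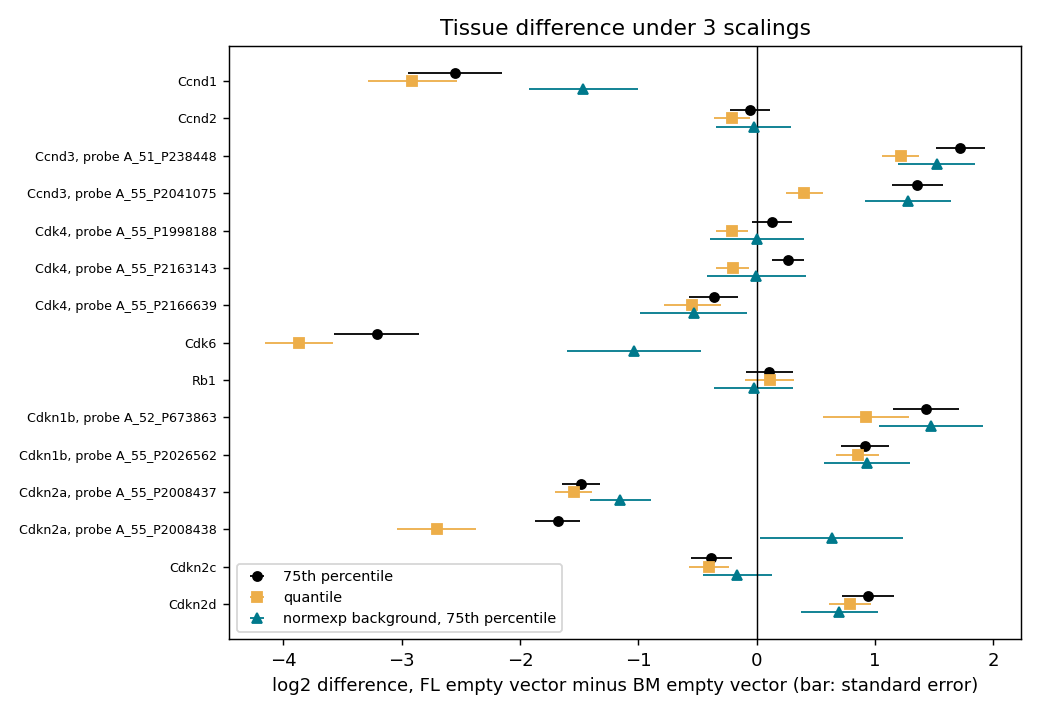
Difference between FL empty vector and BM empty vector cells for the 15 probes under 3 scalings (horizontal axis: log2 difference, bars: standard error). Cdk6 runs from -3.86 with quantile normalization to -1.04 with normexp and the dim Cdkn2a probe A_55_P2008438 from -2.70 to 0.63, while Ccnd3 probe A_51_P238448 stays between 1.22 and 1.72. Points of the dim probe are measured values, since neither FL empty vector array had it well above background.

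Transduction of FL cells with let-7b asked what a gain of the microRNA does in fetal cells. None of the 15 probes was called (limma, adjusted p 0.174 to 0.999), against 0.0246% of all probes, and 3 had an unadjusted p under 0.05, against 9.64% of all. These 3 were both Cdkn2a probes and Cdkn2c, all with higher values in let-7b cells. The difference was positive for 12 probes and negative for 3, with a median of 0.22, against -0.05 over all probes. Let-7b arrays lay above the empty vector arrays without overlap for 5 of 15 probes (Ccnd2, Cdk6, both Cdkn2a probes and Cdkn2c) and below them for 0. Of all probes, 29.9% did not overlap, 11.8% with let-7b higher and 18.2% with let-7b lower.

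The brighter Cdkn2a probe was 0.70 ± 0.16 higher with let-7b (1.62-fold, 95% interval 0.30 to 1.10, limma adjusted p = 0.281). On slide 2 the difference was 0.82 and on slide 3 it was 0.57. The dim probe read -4.31 and -4.42 in let-7b cells, both well above background, against -5.68 and -5.22 in empty vector cells. That is at least 1.63-fold higher (limma on the measured values, not on the bound, adjusted p = 0.174). The bound holds for the scaling used here, and over the alternatives the measured log2 difference ran from 0.25 in the authors' deposited table to 1.31 without FL empty vector replicate 2. Over the alternatives in processing the adjusted p ran from 0.0928 to 1.00 for the brighter probe and from 0.0601 to 1.00 for the dim one, and no alternative turned the sign of either. The FL empty vector arrays that are low here are also those in the tissue comparison, so the Cdkn2a values of these comparisons share 2 arrays.

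Cdkn2c was at 0.44 and 0.46 with let-7b, against -0.27 and 0.05 with empty vector. Both let-7b arrays were higher, by 0.56 ± 0.17 (1.47-fold, 95% interval 0.13 to 0.99, limma adjusted p = 0.409), with 0.71 on slide 2 and 0.40 on slide 3. Cdkn2d, the third INK4 gene, differed by 0.28 ± 0.22. The Cdkn1b probes differed by -0.0021 ± 0.28 and 0.21 ± 0.20, and let-7b and empty vector arrays overlapped for both.

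The let-7 targets known from human cells did not pass the test in either direction. Ccnd1 differed by 0.40 ± 0.40 (95% interval -0.58 to 1.38) and its groups overlapped, with 0.43 on slide 2 and 0.38 on slide 3. Ccnd2 was at 3.31 and 3.65 with let-7b, against 3.25 and 3.28 with empty vector, a difference of 0.21 ± 0.17 (interval -0.20 to 0.63). Cdk6 was 0.76 ± 0.36 higher (interval -0.13 to 1.64, limma adjusted p = 0.585), by 0.27 on slide 2 and by 1.25 on slide 3, where the empty vector array was below the detection limit for this probe. Without FL empty vector replicate 1 the Cdk6 difference was 1.32 (adjusted p = 0.0389), the 1 call that any alternative gave among the 15 probes in this comparison, and it was set against that dim array alone. Without that dim array, replicate 2, the difference was 0.19. Under normexp the Ccnd2 difference was -0.22.

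The other cyclin and kinase probes showed small differences with let-7b. The Ccnd3 probes differed by 0.25 ± 0.21 and 0.22 ± 0.22, those of Cdk4 by -0.06 to 0.16, and Rb1 by -0.21 ± 0.20. Their let-7b and empty vector arrays overlapped for every one of these 6 probes. The 95% intervals of the 6 together ran from -0.70 to 0.76, so changes within that range are not settled by 2 arrays a group.

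**Figure D3:**
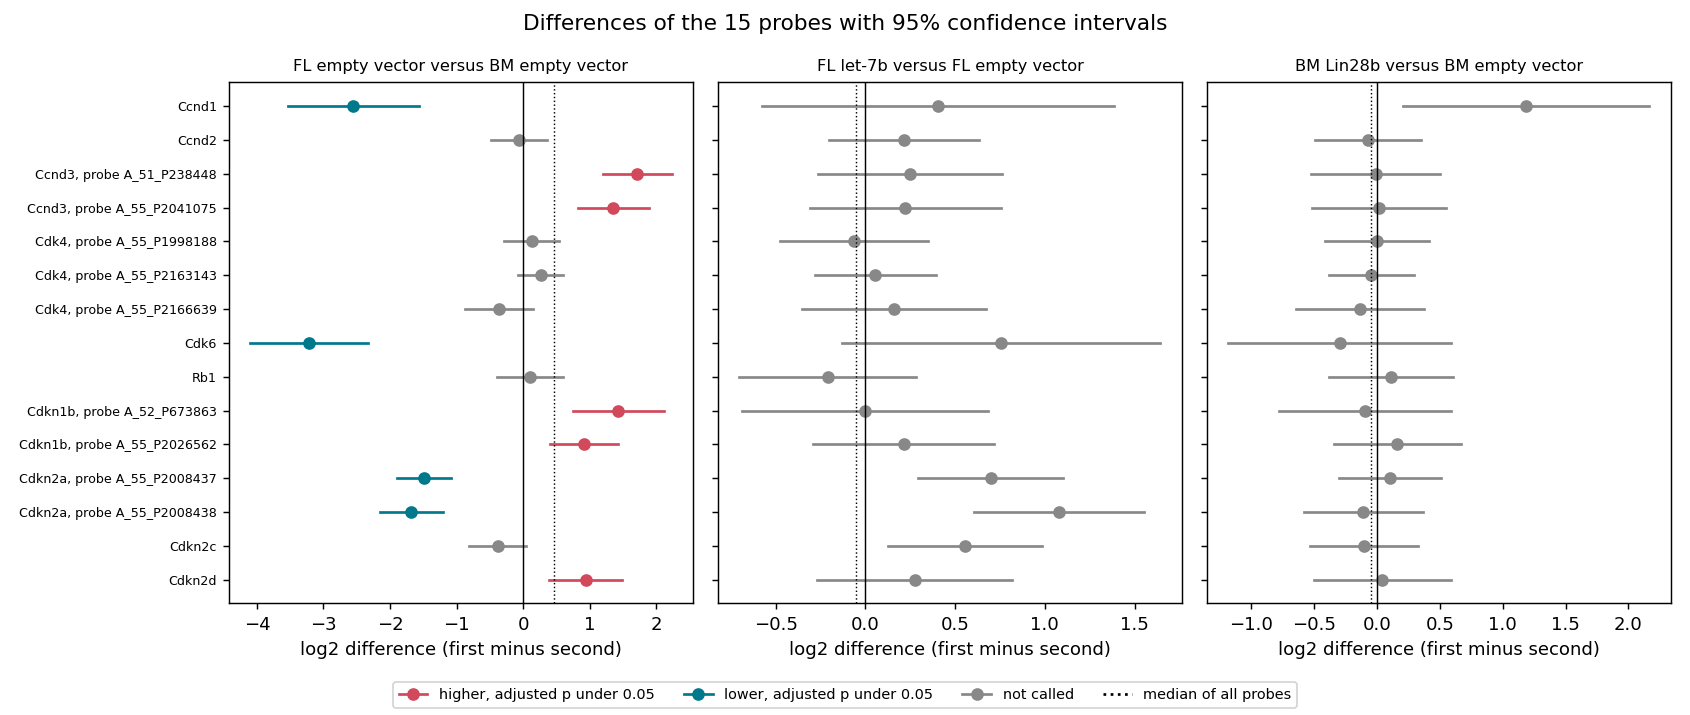
Differences of the 15 probes in the 3 comparisons (horizontal axes: log2 difference, first group minus second; points: limma estimates; bars: 95% confidence intervals; dotted lines: medians of all probes; coloured points passed the test). Called points appear in the tissue panel, where Cdk6 at -3.21 is the lowest and Ccnd3 at 1.72 the highest, and no point is called with let-7b or Lin28b, although the intervals of Cdkn2a and Cdkn2c with let-7b and of Ccnd1 with Lin28b lie above 0 (points of Cdkn2a probe A_55_P2008438 against FL empty vector cells are measured values from below background).

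In adult BM cells transduced with Lin28b, Ccnd1 had the largest difference of the 10 genes and the others differed by -0.29 to 0.16. None of the 15 probes was called, against 0.00352% of all probes (a single probe, that of Lin28b itself). With an unadjusted p under 0.05 there was 1 of the 15, against 3.46% of all. Ccnd1 was 1.19 ± 0.40 higher (2.28-fold, 95% interval 0.21 to 2.17, limma adjusted p = 1.00), by 1.79 between the replicates numbered 1 and by 0.58 between those numbered 2. Both Lin28b arrays exceeded both empty vector arrays. In a fit of the BM arrays alone its adjusted p was 0.354, and over all alternatives it ran from 0.187 to 1.00.

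Cdk6 was lower in both Lin28b arrays, at -0.29 ± 0.36 (95% interval -1.18 to 0.59). The remaining 13 probes differed by between -0.13 and 0.16. Lin28b and empty vector arrays did not overlap for 5 of 15 probes, 1 with Lin28b higher (Ccnd1) and 4 with Lin28b lower (Cdk6, Cdk4 probes A_55_P2163143 and A_55_P2166639, and Cdkn1b probe A_52_P673863). Among all probes 51.0% did not overlap, 17.8% higher and 33.3% lower. The difference was positive for 7 probes and negative for 8, with a median of -0.0087, against -0.04 over all probes. Cdkn2a was at 0.50 and 0.66 with Lin28b against 0.59 and 0.36, and Ccnd3 and Cdkn2d also overlapped between the groups.

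Over the BM arrays stromal markers moved with Ccnd1. The OP9 layer is of mouse origin, so RNA from it is read by the same probes. Of the 18 listed stromal markers with a probe, 15 to 16 were well above background on FL let-7b arrays, 12 to 16 on FL empty vector arrays and 15 on every BM array. Col1a1, Col3a1 and Cxcl12 were well above background on all 8 arrays. The summed linear level of the 18 markers was 22.2 and 17.3 in FL let-7b cells, against 10.4 and 14.3 in FL empty vector cells. In BM Lin28b cells it was 63.3 and 43.2, against 28.9 and 32.3 in BM empty vector cells. Over the 4 BM arrays Ccnd1 and the stromal sum had the same order. Over the 4 FL arrays they did not: between the FL empty vector arrays the one with the higher sum had the lower Ccnd1 level. The part of stromal RNA in the Ccnd1 difference was not tested.

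The stromal list also had positive median differences in both transductions. In let-7b cells 13 of 16 tested markers were positive with a median of 0.83, and in Lin28b cells 14 of 16 with a median of 1.05. Between FL and BM empty vector cells the median was -1.08. None of the 16 was called with let-7b or with Lin28b. With let-7b 5 had an unadjusted p under 0.05, against 9.64% of all probes. With Lin28b 9 had one, against 3.46% of all probes. Cdkn2a and Cdkn2c, the probes with the lowest p-values with let-7b, were higher in the group with the higher stromal sum in FL. In BM, where the stromal sum was also higher with Lin28b, the brighter Cdkn2a probe differed by 0.11 ± 0.16 and Cdkn2c by -0.10 ± 0.17. The part of stromal RNA in the let-7b values was not tested.

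**Figure D4:**
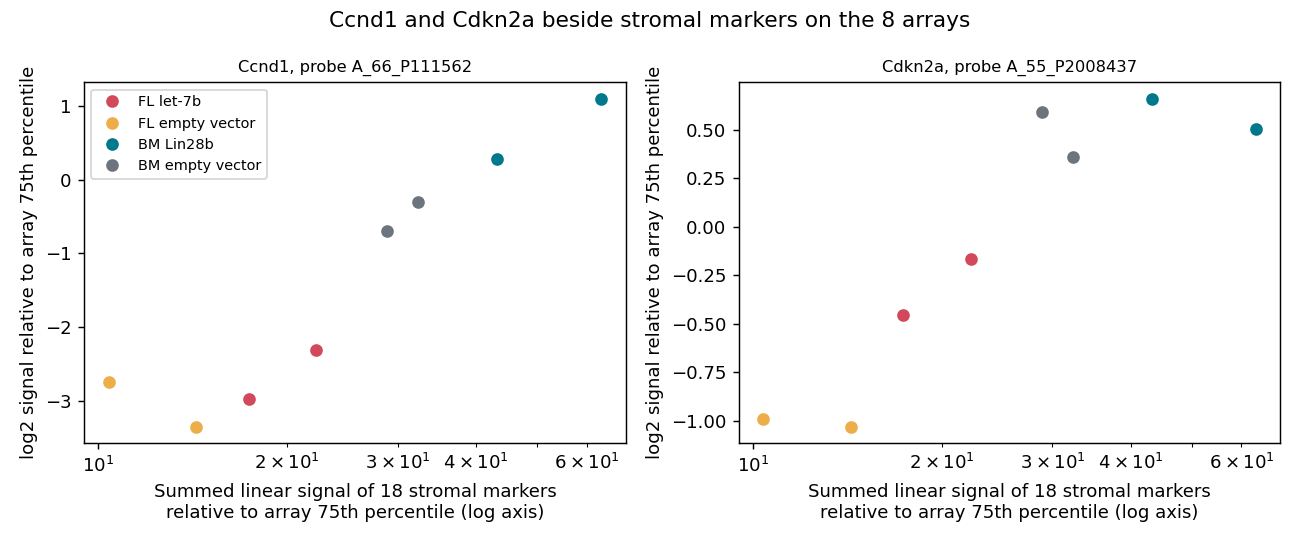
Ccnd1 (left) and Cdkn2a probe A_55_P2008437 (right) beside the summed signal of 18 stromal markers on the 8 arrays (horizontal axes: linear sum relative to the array's 75th percentile, on a log axis; vertical axes: log2 level; 1 point per array, coloured by group). Ccnd1 has the same order as the stromal sum over the BM arrays, and Cdkn2a lies between 0.36 and 0.66 on all 4 BM arrays while the sum there runs from 28.9 to 63.3.

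Other cell types gave further values beside the tissue comparison. The summed level of 9 myeloid markers was 28.8 to 61.2 in FL empty vector cells and 9.13 to 9.58 in BM empty vector cells. Of these 9, 5 to 7 were well above background in FL and 6 in BM. Among 8 tested, 4 were called higher in FL, 1 (Lyz2) lower, and 3 did not pass. The summed level of 6 erythroid markers was 1.62 to 2.04 in FL empty vector cells and 0.66 to 0.68 in BM empty vector cells. Of 4 tested, 2 were called higher in FL and 0 lower. The summed level of 8 markers of T, NK and innate lymphoid cells was 8.16 to 15.9 in FL empty vector cells and 7.97 to 8.70 in BM empty vector cells, so the tissues overlapped, with 3 of 6 tested markers called higher and 1 lower. The pro-B sum was 906 to 1200 in FL empty vector cells and 448 to 475 in BM empty vector cells. The part of these other cell types in the tissue differences of Ccnd3, Cdkn1b and Cdkn2d was not tested. The stromal sum was 10.4 to 14.3 in FL empty vector cells and 28.9 to 32.3 in BM empty vector cells. Of 16 tested stromal markers 7 were called lower in FL and 2 higher. Over all probes 39.1% were called higher in FL and 19.8% lower. The part of stromal RNA in the tissue differences of Ccnd1, Cdk6 and Cdkn2a was not tested either.

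Lin28b in BM and let-7b in FL cells were also set against each other directly, since Lin28b opposes let-7. The Lin28b effect minus the let-7b effect was called for none of the 15 probes, against 0.00704% of all, and had an unadjusted p under 0.05 for 3, against 6.82% of all. These were the brighter Cdkn2a probe at -0.59 ± 0.23 (limma, adjusted p = 0.700), Cdkn2c at -0.66 ± 0.25 (adjusted p = 0.671) and the dim Cdkn2a probe. No size is given for the dim probe (adjusted p = 0.358), since neither FL empty vector array had it well above background. Cdk6 gave -1.05 ± 0.51 and Ccnd1 0.78 ± 0.56. No effect among these genes was thus shown to differ between the transductions after adjustment. The comparison is also one between tissues, vectors and slides.

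Other genes of the G1 pathway came from a list of 33 (E cyclins, Cdk2, further inhibitors, Rb1 relatives, E2F factors and their regulators), of which 32 were measured. Between the empty vector groups 4 were higher and 17 lower in FL, and 11 did not pass, with a median of -0.57, against 0.47 over all probes. Of all probes 58.9% were called, 39.1% higher and 19.8% lower. Cdkn1c, an inhibitor related to Cdkn1b, rose by 2.48 ± 0.24 (limma, adjusted p = 0.000967). Foxo3, a factor known to activate Cdkn1b, rose by 1.94 ± 0.17 (adjusted p = 0.000787). E2f3, an activating E2F factor, fell by 1.62 ± 0.14 (adjusted p = 0.000762), and Cdk7, the kinase that activates other cell cycle kinases, fell by 1.27 ± 0.12 (adjusted p = 0.00093).

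With let-7b none of the 32 was called, 5 had an unadjusted p under 0.05, against 9.64% of all probes, and the median was 0.08. The lowest p-values were those of Cdkn1a (0.77 ± 0.20, adjusted p = 0.328), a p53-induced inhibitor, and of E2f6 (-0.47 ± 0.12, adjusted p = 0.328), a repressive E2F factor. E2f7 and E2f5, also repressive, followed at 0.42 ± 0.13 and -0.46 ± 0.17 (limma, adjusted p = 0.393 and 0.488). With Lin28b again none was called, 1 had an unadjusted p under 0.05, against 3.46% of all probes, and the median was 0.04. That gene was E2f5, at 0.64 ± 0.17, followed by the cyclin partner of Cdk7, Ccnh, at 0.39 ± 0.16 (both adjusted p = 1.00).

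Genes that E2F factors switch on were read as a list of 25, all measured. Between FL and BM empty vector cells 3 were higher, 8 lower and 14 did not pass, with a median of -0.27, against 58.9% of all probes called and a median of 0.47. Among those with the lowest p-values were Orc1, a subunit of the origin recognition complex (-1.04 ± 0.14, adjusted p = 0.00225), and the DNA clamp Pcna (-0.93 ± 0.13, adjusted p = 0.0026). The histone mRNA binding gene Slbp followed (-1.77 ± 0.29, adjusted p = 0.00414), all by limma. With normexp 2 of the 25 were called, against 11968 of all 28410 probes, and with the 4 empty vector arrays alone 7. Neither transduction gave a call or an unadjusted p under 0.05 among the 25, with medians of 0.06 for let-7b and 0.06 for Lin28b. Over all probes 9.64% had such a p with let-7b and 3.46% with Lin28b. The let-7b difference of the licensing factor Cdt1 was -0.30 ± 0.12 and the Lin28b difference of the reductase Rrm2 was 0.22 ± 0.13, the lowest p-values of this list in each.

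The probes whose pattern over the 8 arrays was most like that of 2 member probes were found by the root mean square difference of centred log2 values. For Ccnd1, among 16943 probes of other genes well above background on all 8 arrays, these were Axl (0.222), S100a4 (0.259) and Nrn1 (0.318). For Ccnd3 probe A_51_P238448, among 16942, they were Casz1 (0.0848), Tuba1a (0.0930) and Tspo (0.0972). Tissue and slide vary together over these 8 arrays, so the likeness is a description.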

How the data were processed

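Expression of 4 groups of pro-B cells was read on 8 Agilent arrays, 1 colour each (Cy3). Per the file headers, the spot intensities come from Agilent Feature Extraction 9.5.3.1, whose own background correction is part of the processed signal. A table of log2 values normalized by the authors was deposited too. Its normalization and centring are not given in the sources used here. On bright spots each column had a slope of 0.951 to 1.01 against the log2 scanner values, which set the scale. Medians of the columns were 6.13 to 6.14 on FL arrays and 7.14 to 7.16 on BM arrays, so it served only as an alternative within a tissue. Probe positions are in build mm9, per the file headers.

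Levels are log2 processed signals less the 75th percentile of each array over 43020 spots, with 1377 control spots left out. Copies of a probe were averaged, 31 probes with outlier spots were left out, and 28410 probes well above background on at least 2 of 8 arrays were kept. The 8 arrays entered 1 limma 3.58.1 fit (lmFit and eBayes in R 4.3.3, a mean for each group). Adjustment was by Benjamini-Hochberg over the 28410 probes, with calls under 0.05. An exact permutation test of 2 against 2 arrays cannot go below p = 0.333 (two-sided), so calls depend on the variance that limma pools across probes (1.72 prior degrees of freedom), and precision is limited by the number of arrays. A probe that no array of a group had well above background gave a lower bound only. Each dim array then counted at its own signal or at the dimmest well-above-background signal of that array, whichever was higher.

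The 10 genes and the lists were chosen with earlier results of these data known. Named from the lists are up to 4 genes per list and comparison with the lowest adjusted p. Of these, 1 is not reported here. Likeness was computed for the 2 probes with the widest range of group means among those well above background on all arrays. A list's genes were read by their brightest kept probe. Kept probes took their symbol from a GRCm38.p6 RefSeq gene table by accession (19857), symbol (1960) or synonym (563), and 6030 kept the name in the file. Alternatives were normexp background (offset 50), quantile normalization, other filters, 1 probe per gene, eBayes with trend and robust options, array weights, fits of 4 arrays, the replicate number as a block, each array left out, and, chosen after seeing the data, the slide as a random block.

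Replicate numbers were checked for pairing. The deviations of same-numbered arrays from their group means correlated at 0.51 in FL, where the number and the slide are the same, and at -0.06 in BM. The labels do not say that a number marks a shared sort, and the fit without the block was kept.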

Additional observations from a re-analysis of the deposited data

How the results depend on the processing

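Between FL and BM empty vector cells, 9 of the 15 probes were called in the fit used and in most alternatives. There were 5 with normexp background, 7 with quantile normalization and 8 with array weights. Over all 28410 probes, 16734 were called in the fit used, 11968 with normexp and 14714 with quantile normalization. Of the E2F target genes, 11 were called, against 2 with normexp and 7 with only the 4 arrays of the comparison. Counts over all probes with array weights and in the fit of 4 arrays are not given here. With let-7b 0 of the 15 were called, and 0 to 1 with each array left out. The 1 was Cdk6, without FL empty vector replicate 1. With Lin28b 0 were called under every alternative run. The replicate block gave 9 called probes between the tissues and 0 with let-7b, 0 with Lin28b and 0 for the difference of the effects, so the block changed no count of these. The slide as a random block, chosen after seeing the data, gave 8 between the tissues, since Cdkn1b probe A_55_P2026562 had an adjusted p of 0.0516. Low signal limits Cdk6 and the dim Cdkn2a probe on FL arrays.

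Of the called differences, that of Cdkn2a probe A_55_P2008438 between the tissues turned its sign, to 0.63 with normexp. The other differences that turned their sign were not called. With normexp, the tissue differences were -0.0013 for Cdk4 probe A_55_P2163143 and -0.025 for Rb1. The let-7b differences were then -0.22 for Ccnd2, -0.26 and -0.25 for Ccnd3, -0.39 and -0.24 for Cdk4 probes A_55_P2163143 and A_55_P2166639, 0.37 and -0.19 for Cdkn1b and -0.14 for Cdkn2d. The Lin28b differences were 0.065 for Ccnd2, -0.031 for Cdk4 probe A_55_P1998188 and 0.024 for Cdkn2c. The Lin28b effect minus the let-7b effect was 0.28 for Ccnd2, 0.17 and 0.36 for Ccnd3, 0.36 and 0.16 for the same Cdk4 probes, 0.48 for Cdkn1b probe A_55_P2026562 and 0.20 for Cdkn2d. With quantile normalization, the tissue differences of Cdk4 were -0.21 and -0.20, the let-7b difference of Cdkn1b probe A_52_P673863 was 0.0037 and the Lin28b difference of Ccnd3 probe A_51_P238448 was 0.0051. In the authors' deposited table, fitted here within each tissue, the let-7b difference of that Cdkn1b probe was 0.040, and the Lin28b differences were 0.037 for Ccnd2, -0.022 and 0.0062 for Cdk4 probes A_55_P1998188 and A_55_P2163143 and 0.0083 for Cdkn2c. The cause was not tested.

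With each array left out in turn, a lone array of a group was assumed to vary like the others. Tissue differences then ran from -0.19 to 0.073 for Ccnd2, -0.015 to 0.27 for Cdk4 probe A_55_P1998188 and -0.12 to 0.33 for Rb1. Those with let-7b ran from -0.011 to 0.46 for Ccnd3 probe A_55_P2041075 and from -0.21 to 0.080, -0.066 to 0.18 and -0.044 to 0.36 for Cdk4. They ran from -0.33 to 0.33 for Cdkn1b probe A_52_P673863 and -0.43 to 0.016 for Rb1. Lin28b differences ran from -0.20 to 0.060 for Ccnd2, -0.14 to 0.12 and -0.18 to 0.20 for Ccnd3, -0.12 to 0.12 for Cdk4 probe A_55_P1998188 and -0.042 to 0.37 for Cdkn1b probe A_55_P2026562. They ran from -0.0096 to 0.22 and -0.22 to 0.0035 for Cdkn2a, -0.22 to 0.016 for Cdkn2c, -0.10 to 0.19 for Cdkn2d and -0.017 to 0.24 for Rb1.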
